A study of Rattus norvegicus with 16 samples.

Results

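The libraries described here were 8 messenger RNA (mRNA) libraries and 8 small RNA libraries made from the testicular germ cells (GCs) of male Sprague-Dawley rats. Each mRNA library was matched to the small RNA library of the same diet and replicate number by the library number that both carry, which placed all 16 of the 16 samples of the series in 8 matched sets. From weaning to 19 weeks of age the rats ate either a control diet (CD) or one high in fat (HFD), with 10% and 40% of calories from fat by the sample labels (the study's own text gives the HFD a different fat content), with 4 matched sets per diet, and values below are given in the order of replicates 1, 2, 3 and 4 of each diet. Both groups carried the GCS-eGFP transgene, which marks GCs with green fluorescent protein, and the cells were sorted on that fluorescence, so they were a mixture of GC stages as the gate took them. The comparison made throughout is between the assays: whether a library that stood apart in mRNA also stood apart in small RNA. Because these were bulk libraries, fewer cells of a stage and less RNA per cell cannot be told apart. The files name genes by identifier without symbols, so the sorted cells could not be checked here against marker genes of GCs or somatic cells.

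Male GCs hold unusually diverse RNA. PIWI-interacting RNAs (piRNAs) are small RNAs bound by PIWI proteins in the germ line, where they guide the silencing of transposable elements and, in meiotic and later cells, are also made in large amounts from discrete genomic clusters. Transposable elements such as LINE-1 (L1) and short interspersed elements (SINEs) make up much of the repeat annotation, and small RNA reads that fall in them include piRNAs. MicroRNAs (miRNAs) are shorter, bind Argonaute proteins and repress mRNAs through a seed near their 5′ end.

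The miRNA class is described first by its sequences, because they define the strand that was counted. All 18 miRNA entries with a mean of at least 1 count lay opposite another annotated hairpin, and the counting took reads on the reverse strand of each entry. The leading entry was rno-mir-191b, at chr8:116698851-116698970 on the minus strand of rn5, which holds rno-mir-191a on its other strand. The next was rno-mir-3570, at chr13:59986056-59986172 on the minus strand, which lies opposite rno-mir-181a-1. The third was rno-mir-3596b, opposite let-7d. The mature forms of these entries and of their partners, from RefSeq (GRCr8), are written 5′ to 3′ with the seed, bases 2 to 8, in capitals:
rno-miR-191b: gAACGAAAuccaagugcagcu
rno-miR-191a-3p: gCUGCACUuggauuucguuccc
rno-miR-3570: gGUACAAUcaacggucgauggu
rno-miR-181a-1-3p: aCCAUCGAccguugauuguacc
rno-miR-3596b: aACUAUGCaaccuacuaccu
rno-let-7d-5p: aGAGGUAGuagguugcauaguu
The partners share an unbroken complementary run of 20 bases in the miR-191 pair, 22 bases in the miR-3570 pair and 20 bases in the miR-3596b pair, and their seeds differ. A reverse-strand count of the first entry of each pair is therefore a count of reads on the strand of the second. Counts were made over whole hairpins, so they do not say which arm of the partner gave the reads. In trimming, the paper kept small RNA reads only above a minimum length, which exceeds the length of every mature form in these pairs. Reads ending exactly at the mature forms would thus have been dropped, and what the counted hairpin reads were was not tested. The partner form shown is the one that overlaps the entry's own mature form. Of the 18 entries, 15 had a mature sequence under their own name, and these held 15 different seeds. Their partners held 14, because let-7d, opposite rno-mir-3596b, and let-7e, opposite rno-mir-3596c with 0 to 2 counts per library, share the seed GAGGUAG. The counts of rno-mir-191b were 11970, 11332, 16288 and 14165 in the HFD sets and 17424, 14727, 14544 and 15595 in the CD sets. Those of rno-mir-3570 were 1766, 1173, 3341 and 1620 in HFD and 2050, 2606, 1973 and 2789 in CD. Both entries were present at every replicate and together held 98.9% of the miRNA counts, so the miRNA class followed a pair of entries.

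Totals are given for each class, as depth differed between libraries. The mRNA libraries held 38633043 to 62038805 counts over 26560 genes. The small RNA libraries held 12630 to 19829 counts in miRNA entries, 891575 to 1240080 in piRNA entries and 2363595 to 3269169 in repeat classes. A mean count of at least 1 was reached by 19446 genes, 18 of 1239 miRNA entries, 7818 of 58165 piRNA entries and 755 of 997 repeat classes. None of 8 relations between these totals, or between a total and a summary used below, passed the exact permutation test (lowest adjusted p = 0.642). With the repeat total, r was -0.480 for the piRNA to repeat ratio and -0.470 for the first principal component (PC1) of repeat classes. With the piRNA total it was 0.475 for PC1 of piRNA entries. Over 8 libraries such tests cannot show that depth plays no part.

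The first principal component of the mRNA libraries (mRNA PC1), from log2 CPM (counts scaled to a common library total) over the 19446 genes, carried 36.9% of the variance. Its scores were -90.0, -42.0, -27.5 and 11.98 in the HFD sets and 135.8, 110.6, -5.49 and -93.3 in the CD sets. CD replicates 1 and 2 stood at the high end, CD replicate 4 and HFD replicate 1 stood together at the low end, and the diets overlapped. The sign of PC1 was set by its correlation with the share of the 100 most abundant genes. That this share is larger toward the high end therefore follows from that choice. The 100 most abundant genes held 23.2, 21.9, 24.2 and 23.1% of the gene counts in HFD and 28.5, 26.2, 23.7 and 22.8% in CD. Of these 100 genes, 85 correlated positively with PC1 across the 8 libraries, with a median r of 0.85, against 47.8% of all genes. The direction was fixed by the choice of sign. The size of these correlations was not set against the unsigned correlations of all genes, so it is given as a description only. Genes on the X chromosome, which is largely silent in meiosis, took 1.16, 1.16, 1.27 and 1.27% of the gene counts in HFD and 1.52, 1.44, 1.22 and 1.18% in CD, so CD replicates 1 and 2 were again highest. In the small RNA of the same sets, piRNA entries at a single place on the X chromosome took 0.317, 0.309, 0.325 and 0.294% of the single-place piRNA counts in HFD and 0.415, 0.377, 0.335 and 0.385% in CD. There CD replicate 1 was highest and CD replicate 4, at the low end of the mRNA order, came next.

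The small RNA libraries were summarised by the miRNA share, the ratio of piRNA to repeat counts, and PC1 of each class. The miRNA share of the counts in the 3 classes was 0.413, 0.386, 0.438 and 0.365% in HFD and 0.548, 0.424, 0.429 and 0.531% in CD. It was highest in CD replicates 1 and 4, which lay at opposite ends of mRNA PC1. Because reads were taken opposite each entry, reads of a hairpin with no annotated entry on its other strand were not counted in this class. The paper tested many more miRNAs at the same count filter. The miRNA share and miRNA PC1 are therefore not measures of the whole miRNA content. The piRNA to repeat ratio was 0.381, 0.377, 0.379 and 0.373 in HFD and 0.376, 0.374, 0.377 and 0.382 in CD. The highest ratio exceeded the lowest by only 2.64%. Counting error was smaller still: piRNAs made up 27.7% of the piRNA and repeat counts in CD replicate 4 (Wilson 95% interval 27.6 to 27.7%) and 27.1% in HFD replicate 4 (27.1 to 27.2%). Such intervals cover counting error only, since the reads carried no molecular identifiers. The annotations of the piRNA and repeat classes can overlap on the genome, so the classes are not exclusive. piRNA entries were counted from reads of the reverse strand only and repeat classes without strand, so the ratio does not compare like counts.

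PC1 carried 26.3% of the variance of the miRNA entries, 20.1% of the piRNA entries and 21.2% of the repeat classes. The piRNA scores were -34.6, 1.28, 23.1 and 31.3 in HFD and -82.2, 7.97, 22.4 and 30.8 in CD. The repeat scores were 14.6, 1.11, -9.77 and -6.76 in HFD and 22.3, 1.26, -12.7 and -10.1 in CD. Replicate 1 of each diet was lowest in piRNA PC1 and highest in repeat PC1. In piRNA PC1 replicates 2, 3 and 4 lay nearest the library of the same number in the other diet. In repeat PC1 this held less well: HFD replicate 3 (-9.77) lay nearer CD replicate 4 (-10.1) than CD replicate 3 (-12.7). Replicates 1 themselves differed by 47.6 in piRNA PC1 and by 7.70 in repeat PC1. Replicates 3 of the diets differed in piRNA PC1 by 0.644 and replicates 4 by 0.540, over a range of 113.6 across all libraries; replicates 2 differed by 6.69. In repeat PC1 replicates 2 differed by 0.144, replicates 3 by 2.95 and replicates 4 by 3.35, over a range of 35.1. In mRNA PC1 the same-numbered libraries of the diets differed by 22.0 to 225.8, over a range of 229.1. The labels give no preparation or sequencing batch, and the part of any batch in the likeness of same-numbered small RNA libraries was not tested.

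**Figure D1:**
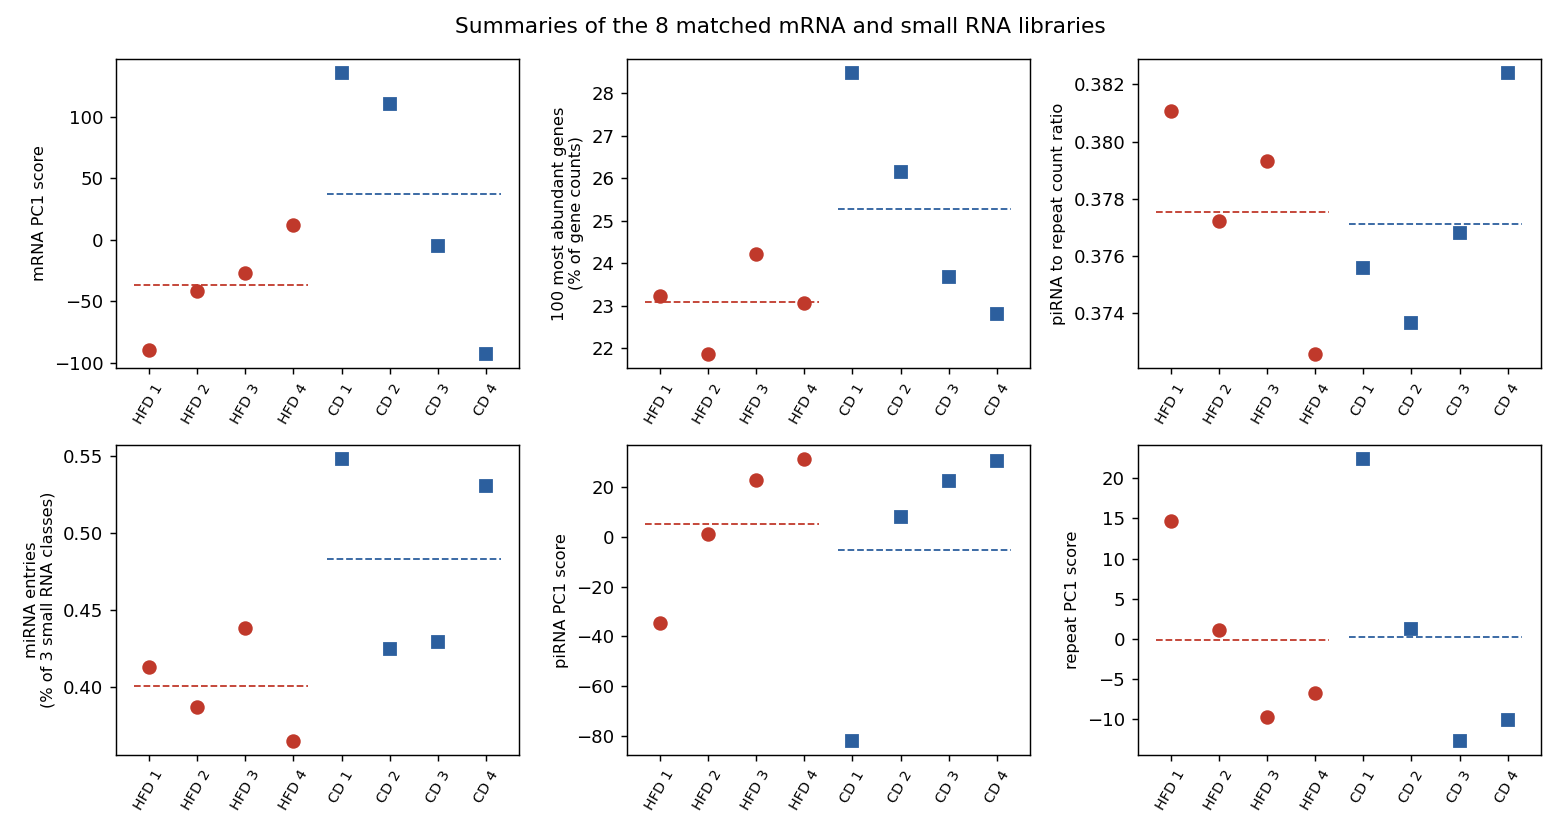
Each panel plots 1 summary for the 8 matched libraries, with HFD as circles and CD as squares and the diet mean as a dashed line. The panels give mRNA PC1 score, the 100 most abundant genes in percent of gene counts, the piRNA to repeat count ratio, miRNA entries in percent of the 3 small RNA classes, and piRNA and repeat PC1 scores; CD replicates 1 and 2 are highest in the first 2 panels, and replicate 1 of each diet is lowest in piRNA PC1 and highest in repeat PC1.

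The diets served only as a background to these comparisons. None of 7 summaries differed between HFD and CD by a two-sided exact permutation test over 70 labellings, whose smallest possible p is 0.0286 (all adjusted p at least 0.6). The miRNA share came nearest, at 0.400% ± 0.0318 (SD, n = 4) in HFD and 0.483% ± 0.0655 (SD, n = 4) in CD (exact permutation p = 0.0857, adjusted p = 0.6).

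Across the 8 matched sets, mRNA PC1 was lower where the piRNA to repeat ratio was higher. Pearson's r was -0.762 (two-sided exact permutation p = 0.0279, adjusted p = 0.279 over 10 relations) and Spearman's rho was -0.881 (exact permutation p = 0.00724, adjusted p = 0.0724). CD replicate 4 and HFD replicate 1 had the highest ratios and the lowest mRNA scores, while HFD replicate 4 and CD replicates 1 and 2 had the lowest ratios and the highest scores. Without CD replicates 1 and 2, the sets farthest from the median of mRNA PC1, r was -0.908 (exact permutation p = 0.00833). With each measure centred on its diet mean, r was -0.828 (exact permutation within diets p = 0.00694, adjusted p = 0.0694). The direction was thus the same over all 8 sets and within diets, and the relation did not pass the correction in either form.

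The other 9 relations had adjusted p values of at least 0.306. mRNA PC1 gave r = 0.217 with the miRNA share (exact permutation p = 0.630), -0.0773 with miRNA PC1 (p = 0.852), -0.446 with piRNA PC1 (p = 0.262) and 0.401 with repeat PC1 (p = 0.318). Without CD replicates 1 and 2 each of these changed sign, to -0.623, 0.508, 0.518 and -0.509, so they rested on those sets. The relation to piRNA PC1 was set by replicates 1: r was 0.907 without CD replicate 1 (exact permutation p = 0.00278, adjusted p = 0.0278) and -0.829 without HFD replicate 1 (adjusted p = 0.0327). The relation to repeat PC1 was likewise -0.792 without CD replicate 1 (exact permutation, adjusted p = 0.106) and 0.870 without HFD replicate 1 (adjusted p = 0.0327). The share of the 100 most abundant genes gave r = 0.563 with the miRNA share (exact permutation p = 0.122), -0.374 with the ratio (p = 0.364), -0.359 with miRNA PC1 (p = 0.387), -0.666 with piRNA PC1 (p = 0.0792) and 0.577 with repeat PC1 (p = 0.116). Without CD replicates 1 and 2 these were 0.146, 0.0729, -0.399, 0.191 and -0.330, so only the one with miRNA PC1 kept its size.

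**Figure D2:**
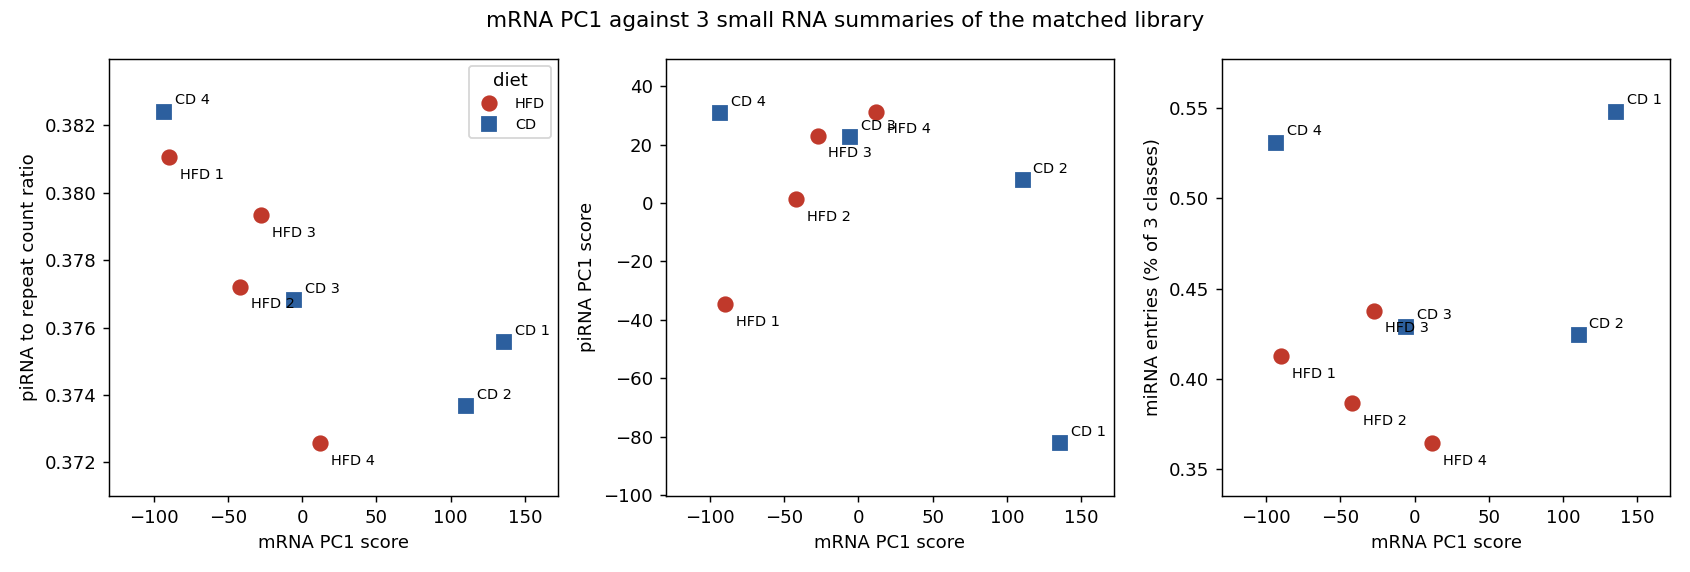
mRNA PC1 score on the horizontal axis is plotted against the piRNA to repeat count ratio, piRNA PC1 score and miRNA entries in percent of the 3 small RNA classes, 1 point per matched set, HFD as circles and CD as squares. The ratio falls along mRNA PC1 (r = -0.762), while in the piRNA panel CD replicate 1 and HFD replicate 1 lie far below the other 6 points at opposite ends of the mRNA axis.

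Whole profiles gave a second view that does not depend on a single component. The distance between a pair of libraries, taken as 1 minus Pearson's r of log2 CPM, ran from 0.0102 to 0.0194 in mRNA, 0.0256 to 0.0408 in piRNAs, 0.00583 to 0.00960 in repeat classes and 0.00737 to 0.0260 in miRNA entries over the 28 pairs. HFD replicate 2 and CD replicate 3 were the closest pair in mRNA, and HFD replicate 1 and CD replicate 2 the farthest. In piRNAs CD replicates 1 and 4 were the farthest pair (0.0408). HFD replicate 1 and CD replicate 2 came next (0.0369), little above CD replicates 1 and 3 (0.0368) and HFD replicate 2 with CD replicate 1 (0.0366). The closest pair in piRNAs was HFD replicate 4 and CD replicate 2 (0.0256), which was not the closest in mRNA. The mRNA and piRNA distances correlated at r = 0.484 (exact permutation over orders of the libraries, p = 0.0583, adjusted p = 0.175 over 3 classes). Without CD replicate 2 the value was 0.632 (exact permutation, adjusted p = 0.0417). For repeat classes r was 0.220 (exact permutation p = 0.411) and for miRNA entries -0.268 (p = 0.335). Without CD replicates 1 and 2 the values were 0.562 for piRNAs (exact permutation p = 0.0944), 0.0853 for repeat classes (p = 0.836) and 0.0102 for miRNA entries (p = 0.971). The mRNA distances within a diet (median 0.0142, 12 pairs) and between diets (median 0.0148, 16 pairs) overlapped.

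**Figure D3:**
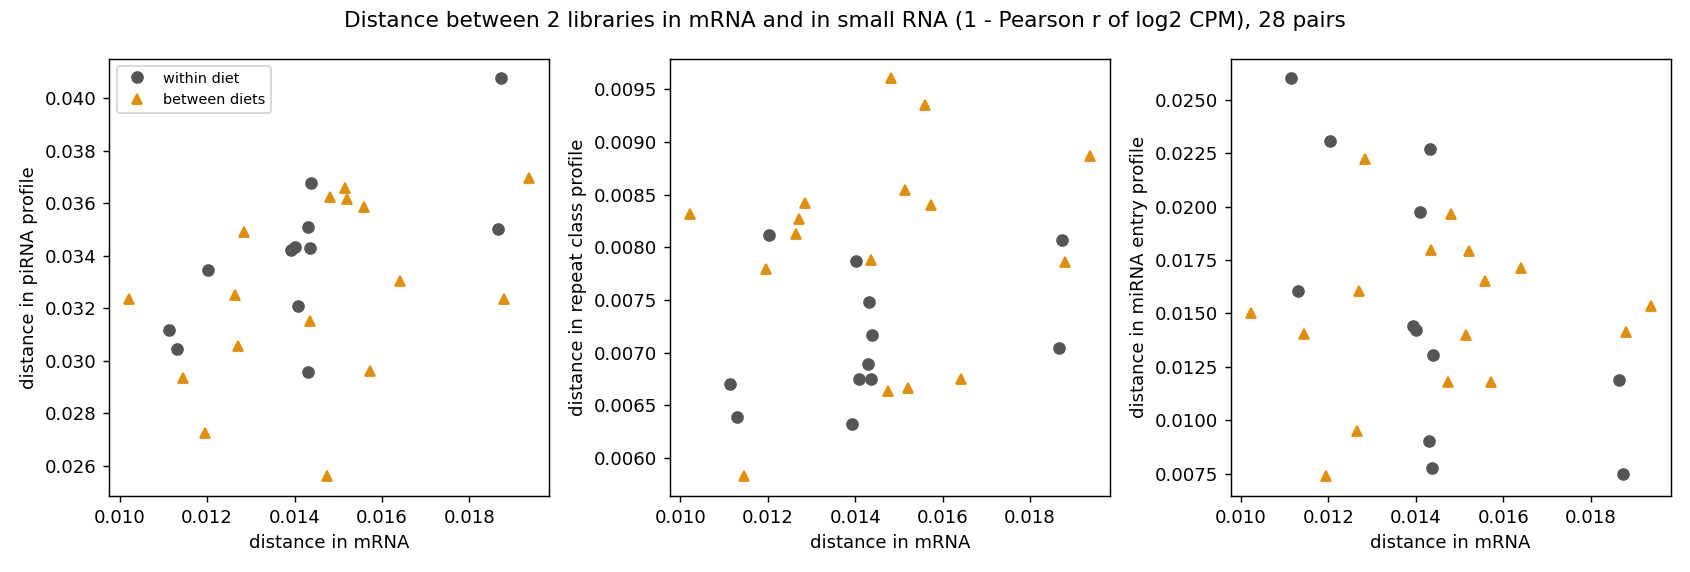
Each point is 1 of the 28 library pairs, with its distance in mRNA on the horizontal axis and its distance in piRNA, repeat class or miRNA entry profile on the vertical axis, all as 1 minus Pearson's r of log2 CPM; circles are pairs within a diet and triangles pairs between diets. Pairs far apart in mRNA tend to lie higher in the piRNA panel (r = 0.484), and r is -0.268 in the miRNA panel, or 0.0102 without CD replicates 1 and 2.

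Gene by gene, 4 small RNA summaries were fitted (miRNA PC1 was not), and of these the piRNA to repeat ratio was the only one with more than 1 gene called by edgeR on all 8 libraries. The fit was edgeR's quasi-likelihood test with diet as a term and the ratio, on the log2 scale, scaled to a standard deviation (SD) of 1; 1 SD was a change of 0.917% in the ratio, and a slope is the log2 change of a gene per SD. At an adjusted p under 0.05, 953 of 19446 genes (4.9%) were called, of which 243 rose (1.25%) and 710 fell (3.65%) as the ratio rose. The slopes of the genes that rose had a median of 0.19, and those of the genes that fell a median of -0.26, against 0.01 for all genes. Called genes lay on 21 chromosomes in each direction. The count rested on 2 libraries: it was 0 without CD replicate 2, where the lowest adjusted p was 0.0820 and 3372 genes had an unadjusted p under 0.05, and 0 without CD replicate 4, where the lowest was 0.302 and the unadjusted count was 1687. Without HFD replicate 1 it was 379. The ratio and mRNA PC1 correlate across these 8 sets, so the called genes and that correlation are not separate evidence.

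Groups of genes could be formed only from position, exon number and abundance, and their shares called stand against 4.9% of all genes. On the X chromosome 2 genes rose and 40 fell of 793, which is 5.30%. Among genes with a single exon 4 rose and 44 fell of 1699 (2.83%). None of the 100 most abundant genes was called. At an unadjusted p under 0.05 stood 23 of these 100, against 4431 of all 19446 genes, so their share was near that of all genes. All 23 had negative slopes, while 1988 of the 4431 rose and 2443 fell. The median slope of the 100 genes was -0.08. Of 4189 genes with a mean count under 10, 1 rose and 1 fell.

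The genes described next had the smallest p values of this fit in their direction, so that they follow the ratio is a matter of their choice. ENSRNOG00000029371, a gene of 1 exon at chr13:114361911-114363629 on the minus strand of rn5, stood at 23.0, 32.6, 28.9 and 39.3 CPM in the HFD sets and at 41.9, 51.3, 40.4 and 24.1 CPM in the CD sets. It was lowest in HFD replicate 1 and CD replicate 4, which had the highest ratios, and its slope was -0.36 ± 0.0428 (SE; edgeR adjusted p = 0.0115). ENSRNOG00000015380, of 15 exons at chr10:88073766-88100379 on the minus strand, had 23.0, 28.9, 28.1 and 38.7 CPM in HFD and 38.2, 49.1, 33.9 and 24.2 CPM in CD, and a slope of -0.33 ± 0.0407 (SE; edgeR adjusted p = 0.0115). The same libraries were low in both genes. ENSRNOG00000013167, of 5 exons at chr16:35886764-35889338 on the minus strand, went the other way, with 25.6, 18.9, 24.0 and 16.3 CPM in HFD and 14.5, 14.8, 19.0 and 29.1 CPM in CD. Its slope was 0.35 ± 0.0476 (SE; edgeR adjusted p = 0.0115). All 3 lost the call without CD replicate 2 (edgeR adjusted p = 0.0820) and without CD replicate 4 (adjusted p = 0.302). The mRNA kit does not mark strand, so a gene and a gene antisense to it cannot be told apart in these counts.

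The other 3 summaries fitted called almost no gene. On the miRNA share 0 genes were called (0%) by edgeR, with 593 at an unadjusted p under 0.05 and 3 called by DESeq2; without CD replicate 1 the count was 413. On piRNA PC1 edgeR called 0 genes (0%), with 766 at an unadjusted p under 0.05 and 5 called by DESeq2. On repeat PC1 it called 1 gene (0.00514%), with 671 at an unadjusted p under 0.05. That gene, ENSRNOG00000017118, has 13 exons at chr1:171496702-171531029 on the plus strand. Its counts were 248, 23, 19 and 27 in the HFD sets and 449, 30, 16 and 26 in the CD sets. It was high in replicate 1 of each diet and low in the other 6 libraries, with no overlap. Those are the libraries highest in repeat PC1. The gene was named for following that summary, so this likeness to the small RNA is a matter of its choice. Its slope on repeat PC1 was 1.89 ± 0.192 (SE; edgeR adjusted p = 0.0250). Without CD replicate 1 the adjusted p was 0.999995, and without HFD replicate 1 it was 0.194.

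In the opposite direction, from mRNA to small RNA, few small RNA features followed mRNA PC1. Of 755 repeat classes 2 were called (0.265%), both lower where mRNA PC1 was higher, and 56 had an unadjusted p under 0.05. L1MD3, an L1 subfamily annotated at 2187 places, had 2713, 2472, 2597 and 2393 CPM of the repeat counts in HFD and 2069, 2248, 2547 and 2871 CPM in CD. It was highest in CD replicate 4 and HFD replicate 1 and lowest in CD replicates 1 and 2, with a slope of -0.16 ± 0.0199 per SD of mRNA PC1 (SE; edgeR adjusted p = 0.0109). MER20, a DNA transposon annotated at 5773 places, had 6458, 6133, 6544 and 5989 CPM in HFD and 5378, 5383, 6100 and 7057 CPM in CD. Its order was similar, with a slope of -0.14 ± 0.0209 (SE; edgeR adjusted p = 0.0290). The edgeR adjusted p of L1MD3 was 0.0681 without CD replicate 1 and 0.505 without CD replicate 4, and that of MER20 lay between 0.0682 and 0.973 without any 1 of HFD replicates 2 and 4 and CD replicates 1, 2 and 4.

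The retrotransposon groups as wholes held narrow ranges. The L1 group of 119 classes held 14.6 to 15.1% of the repeat counts in the 8 libraries and the SINE group of 36 classes 22.0 to 23.0%. Of the 103 L1 classes tested 1 was called, and of the 36 SINE classes 0 were called, with 6 at an unadjusted p under 0.05. The most abundant class was ORR1F, a rodent long terminal repeat family, at 6.17 to 7.40% of the repeat counts, followed by the old SINE family MIRb at 4.38 to 5.44%. ORR1F was lowest in CD replicate 4 and MIRb highest in CD replicate 1.

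Of 7818 piRNA entries 1 was called on mRNA PC1 (0.0128%), with 520 at an unadjusted p under 0.05. That entry, rat_piRNA_84491, is annotated at 82 places on 17 chromosomes and had 14 counts in HFD replicate 1, 18 in CD replicate 4 and 0 in the other 6 libraries. The libraries with counts were the lowest pair on mRNA PC1. The entry passed the count filter through those libraries alone and was named for its p on mRNA PC1, so this is a matter of its choice. No fold is given against libraries at 0. The most abundant entries were rat_piRNA_147512, with 2.92 to 3.63% of the piRNA counts, and rat_piRNA_178017, with 2.19 to 2.39%. None of the 10 most abundant entries was called on mRNA PC1. The smallest p values among them were those of rat_piRNA_143664 and rat_piRNA_178108. Their slopes were 0.14 and 0.29 (edgeR unadjusted p = 0.00577 and 0.00725, adjusted p = 0.513 and 0.569). Among single-place entries, rat_piRNA_68841, at chr8:54088942-54088970, held 0.658, 0.749, 0.956 and 1.13% in HFD and 0.650, 1.20, 0.991 and 1.21% in CD, and it was low in replicate 1 of each diet. Of the 18 miRNA entries 0 were called (0%) by edgeR and 0 by DESeq2, and 0 had an unadjusted p under 0.05. The entry with the smallest p was rno-mir-3596b, with 50, 35, 43 and 40 counts in HFD and 72, 69, 33 and 43 in CD and a slope of 0.20 ± 0.158 (SE; edgeR adjusted p = 0.940).

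**Figure D4:**
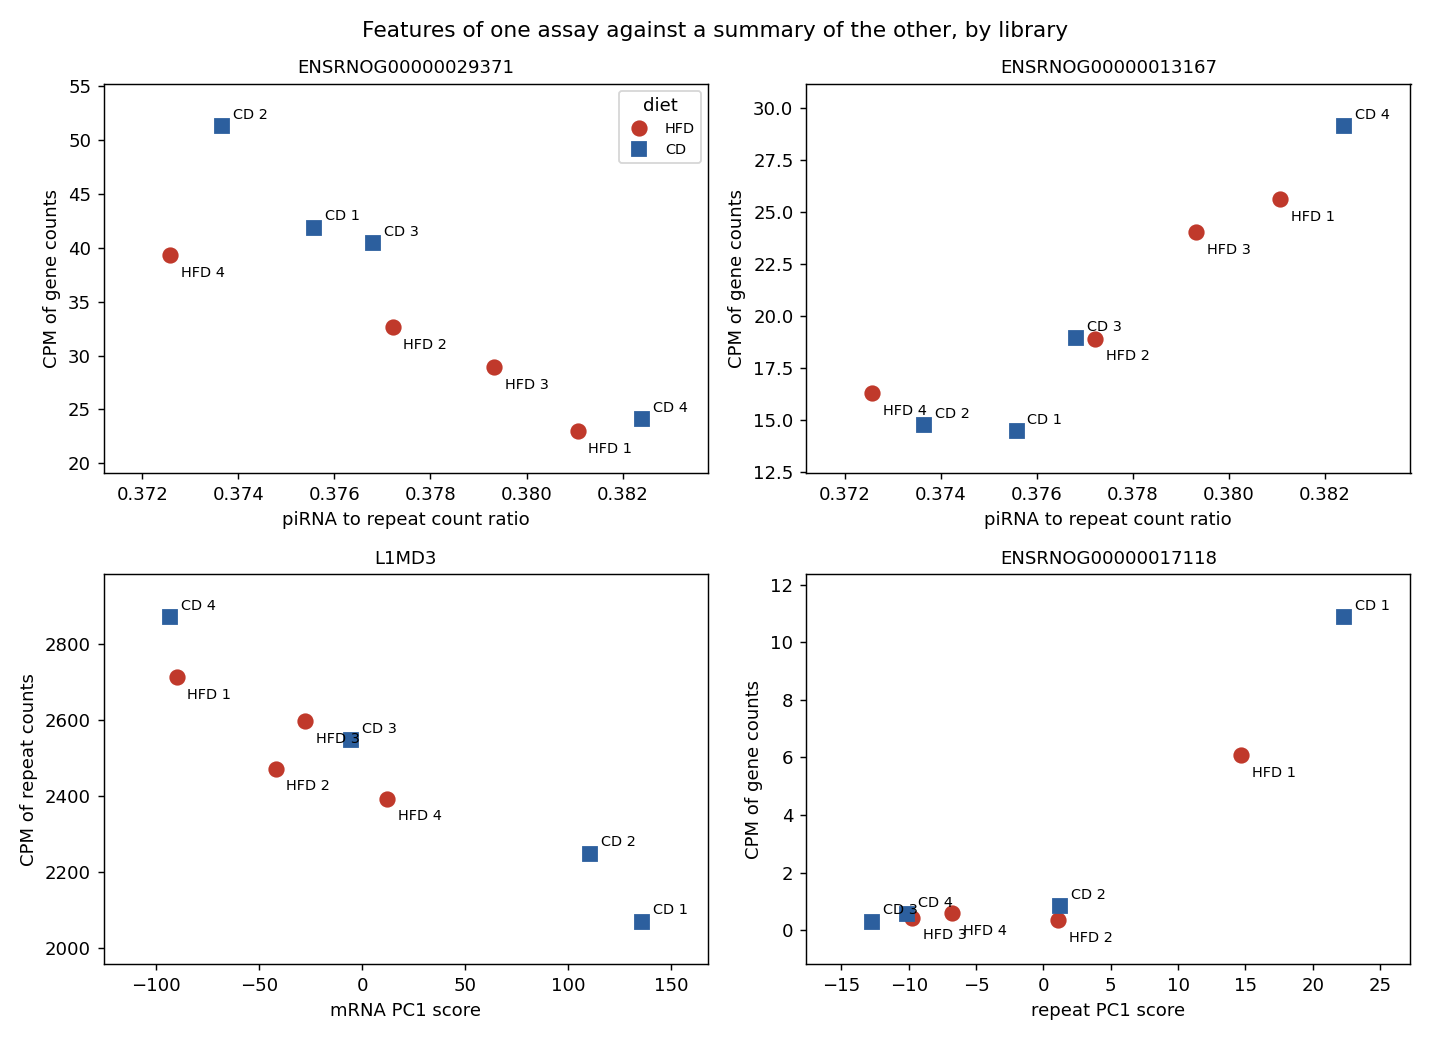
CPM of 1 feature against a summary of the matched library, 1 point per set, HFD as circles and CD as squares: ENSRNOG00000029371 and ENSRNOG00000013167 against the piRNA to repeat ratio, L1MD3 against mRNA PC1 score, and ENSRNOG00000017118 against repeat PC1 score. The first falls and the second rises along the ratio, L1MD3 falls along mRNA PC1, and ENSRNOG00000017118 is high only in replicate 1 of each diet (6.09 and 10.9 CPM).

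A last comparison asked whether piRNAs that lie inside exons varied with the mRNA of the same gene. Single-place entries held 73.7 to 74.4% of the piRNA counts, and those inside exons held 3.29, 3.42, 3.52 and 3.73% of the single-place counts in HFD and 3.04, 3.54, 3.58 and 3.93% in CD. There were 285 such entries with counts, in 179 genes. The piRNA annotation places each entry on the plus strand, and entries were counted on the reverse strand, so reads from the minus strand were taken, and 160 of the 179 genes lie on that strand. Genes on the minus strand, whose mRNA has the strand of the piRNA reads, held 97.0 to 97.8% of the exonic counts. The counts were concentrated: 3 genes held 81.2% of the 217397 exonic counts and 10 genes 94.8%.

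For the 82 genes with a mean of at least 1 count in both assays, the correlation of exonic piRNA and mRNA levels across the matched sets averaged 0.00115 (two-sided exact permutation of the pairing, p = 0.980), and 41 of 82 were positive. A small RNA library correlated best with its own mRNA partner in 2 of 8 sets. In the 71 genes on the minus strand the mean r was -0.00697 (exact permutation p = 0.880), and in the 11 genes on the plus strand it was 0.0536 (p = 0.635), a division chosen after the data were seen. In the 20 genes with a mean of at least 10 counts in both assays it was 0.0959 (exact permutation p = 0.397). A relation between piRNA and mRNA of the same gene was thus not detectable with 8 sets at this depth.

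**Figure D5:**
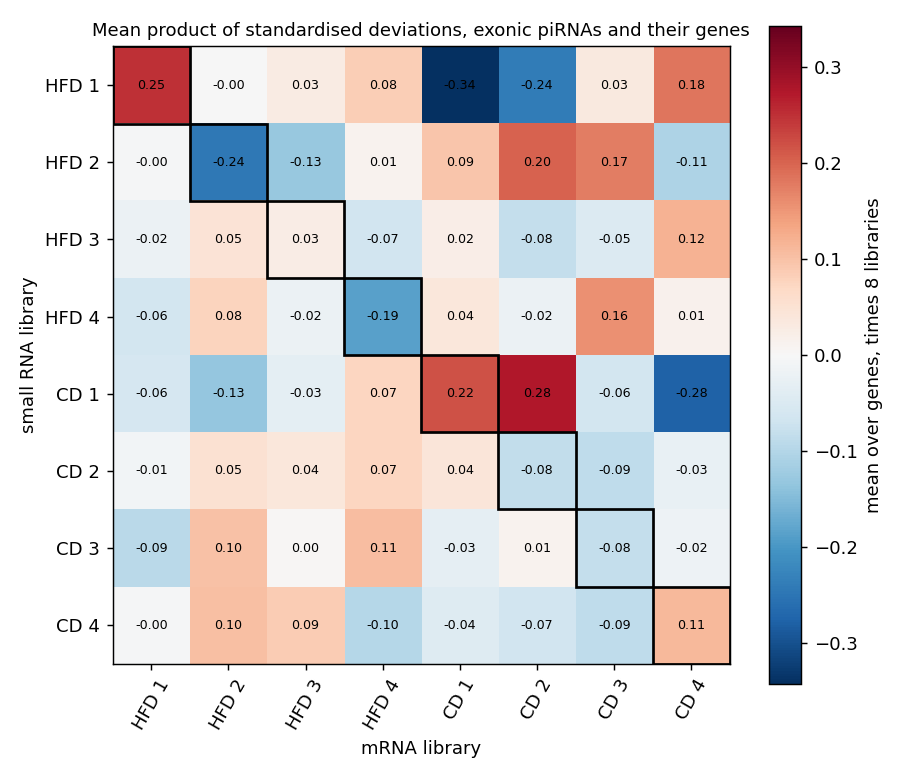
Rows are small RNA libraries and columns mRNA libraries; each cell gives the mean, over 82 genes, of the product of the standardised deviations of exonic piRNAs and of the mRNA, times 8 libraries, and the boxed diagonal marks matched sets. The diagonal holds both positive cells, such as HFD replicate 1 at 0.250, and negative ones, and its mean is 0.00115.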

How the data were processed

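The authors sorted eGFP-positive GCs, extracted total RNA and made mRNA libraries with a Truseq RNA kit and size-selected small RNA libraries with a Truseq small RNA kit. The submitters' processing notes name STAR 2.3.0 and genome build rn5. The deposited values were raw counts per gene, miRNA hairpin, piRNA entry and repeat class, made by the authors with featureCounts 1.4.6 per the file headers, with reads of the reverse strand taken for all classes but repeats, which were counted without strand. There were 32 files, and in 3 files of CD small RNA replicate 4 the header gives library number 12 where the file name gives 16; the file name was used. Counts in a read class were taken as deposited, and no sample column was left unassigned.

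Features averaging 1 count or more over the 8 libraries were kept, normalised by trimmed mean of M-values (TMM) and given as log2 CPM with a prior count of 2 for principal components scaled per feature. Relations over 8 matched sets used two-sided exact permutation tests with Benjamini-Hochberg adjustment. Counts were fitted with edgeR 4.0.16 (quasi-likelihood, diet plus the other assay's summary) in R 4.3.3, with adjustment over all features of a class and a threshold of 0.05; DESeq2 1.42.0 was an alternative. The other computations used Python 3.11.15 with scipy 1.17.1. The scripts were tested on simulated data. Totals were 38633043 to 62038805 counts per mRNA library and 3267800 to 4529078 per small RNA library over the 3 classes. Other alternatives were DESeq2 size factors and variance-stabilised values, other count filters, unscaled components, a robust fit, a replicate block, no diet term or diet-centred values, and leaving out each replicate.

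Matched sets, summaries and lists were chosen with earlier results of these data known. Named features were the 10 most abundant of each class and those with the smallest p in each fit, with at most 2 gene identifiers given per direction. Lists of cell type markers and of the piRNA and miRNA pathways could not be used, since the files do not pair identifiers with symbols. The labels do not say that the replicates of the assays share an extraction, and the match rests on the shared number. Replicates of one diet are taken as separate rats; if they were not, p-values measure technical spread only.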

Additional observations from a re-analysis of the deposited data

Results flagged for a closer look

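Within groups of 4 libraries, 38 sets of values were tested by Dixon's criterion for a sample far from the others, and 4 exceeded it. Chance flags about 1 in 20 groups, but that rate does not apply to these 4: both features were named for small p values that came from high values in these same libraries. ENSRNOG00000017118 stood at 6.09 CPM in HFD replicate 1, against 0.343 to 0.591 CPM in the other HFD mRNA libraries, and at 10.9 CPM in CD replicate 1, against 0.298 to 0.823 CPM in the other CD libraries. The piRNA entry rat_piRNA_84491 stood at 14.95 CPM of the piRNA counts in HFD replicate 1 and at 18.4 CPM in CD replicate 4, and had 0 counts in the other 6 small RNA libraries.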

How the results depend on the processing

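The correlations over 8 sets rest on few libraries, the miRNA counts on about a pair of entries, and a difference missing the threshold does not show that the assays are unrelated. The relation of mRNA PC1 to the piRNA to repeat ratio kept its direction under each alternative and did not pass the correction under any. Of 51 relations recomputed without leaving out a library, 48 kept their direction and side of the threshold and 3 changed sign. With features averaging 10 counts or more, the correlation of miRNA PC1 became 0.334 with mRNA PC1 and 0.120 with the share of the 100 most abundant genes; with diet-centred values that of mRNA PC1 with the miRNA share became -0.153, and the profile comparison of mRNA and miRNA entries became 0.443. The mean r of exonic piRNAs and mRNAs was -0.00697 in minus-strand genes. The cause was not tested. Matching by the header number was not run, since number 12 occurs in 2 small RNA sets.

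DESeq2 called 3 genes on the miRNA share, 2005 on the ratio, 5 on piRNA PC1, 5 on repeat PC1, 5 piRNAs and 9 repeat classes on mRNA PC1. With a mean count of at least 10, 0 genes were called on repeat PC1 and 0 piRNAs; with any count, 1 gene on piRNA PC1 and 50 piRNAs; without the diet term, 1 gene on piRNA PC1; with the robust fit, 3 piRNAs.

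Whether the replicate numbers pair the libraries across diets was not tested. The mean correlation of the deviations of same-numbered libraries was -0.0771 in genes, 0.0968 in miRNA entries, 0.0574 in piRNAs and 0.0706 in repeat classes. For libraries of other numbers it was 0.0257, -0.0303, -0.0190 and -0.0235, in the same order. On average, same-numbered libraries were slightly more alike in the small RNA classes and not in genes. Single same-numbered pairs ran from -0.232 to 0.394 in miRNA entries and -0.0547 to 0.193 in piRNAs. In repeat classes they ran from -0.00876 to 0.165, so each small RNA class held negative pairs, and the difference was not tested. The piRNA PC1 scores of replicates 2, 3 and 4 lay close to those of the same number. In repeat PC1 HFD replicate 3 lay nearer CD replicate 4 than CD replicate 3. In fits blocked by replicate number, 338 genes were called on the ratio, 1 on piRNA PC1, 0 on repeat PC1 and 0 on the miRNA share, as were 67 piRNAs, 0 repeat classes and 0 miRNA entries on mRNA PC1. No diet difference passed with the block, where the smallest p possible is 0.125.

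Leaving out each library in turn, the correlation of mRNA PC1 ran from -0.394 to 0.630 with the miRNA share, -0.882 to -0.674 with the ratio, -0.0612 to 0.156 with miRNA PC1, -0.829 to 0.907 with piRNA PC1 and -0.792 to 0.870 with repeat PC1. That of the 100 most abundant genes' share ran from 0.0629 to 0.881, -0.608 to -0.256, -0.368 to -0.163, -0.853 to 0.609 and -0.457 to 0.802, in the same order. The profile correlation ran from -0.515 to -0.0670 for miRNA entries, 0.353 to 0.632 for piRNAs and 0.161 to 0.369 for repeat classes, and the mean exonic r from -0.0432 to 0.0331. The HFD minus CD difference ran from -122.8 to -46.1 in mRNA PC1, -3.01 to -1.12 percentage points in the top 100 share, -0.102 to -0.0609 in the miRNA share, -0.00284 to 0.00836 in the log2 ratio, -1.74 to 0.882 in miRNA PC1, -24.5 to 26.2 in piRNA PC1 and -5.73 to 7.11 in repeat PC1. Calls ran from 0 to 413 genes on the miRNA share, 0 to 1336 on the ratio, 0 to 1 on piRNA PC1 and 0 to 1 on repeat PC1, and from 0 to 9 piRNAs, 0 to 4 repeat classes and 0 to 0 miRNA entries on mRNA PC1. The counts for repeat classes were 0 without CD replicate 1 and 0 without CD replicate 4, and that on the miRNA share was above 0 only without CD replicate 1.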

Other observations

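A pair of genes near each other on chromosome 13, chosen because they had the smallest p values on the miRNA share, had few counts in 2 of the mRNA libraries. The first, of 16 exons at chr13:55608313-55632417 on the minus strand of rn5, had 795, 1342, 1384 and 937 counts in HFD replicates 1 to 4 and 819, 17, 32 and 1514 counts in CD replicates 1 to 4. The second, of 14 exons at chr13:55133392-55151200 on the plus strand, had 326, 616, 583 and 447 counts in HFD and 442, 8, 16 and 585 counts in CD. CD replicates 2 and 3 were low in both genes. Neither was called on the miRNA share by edgeR (adjusted p = 0.9999), and both were called by DESeq2 (adjusted p = 0.00673 and 0.00928). Without CD replicate 1 the edgeR adjusted p was 0.0392 for the first and 0.0535 for the second. Without the diet term the slopes per SD of the miRNA share were 0.24 and 0.23 on the log2 scale, against 2.38 and 2.19 with it, and the edgeR adjusted p of both was 0.991.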
